A study of Mus musculus with 8 samples.

Results

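The keratin, desmosome and tight junction genes examined here are 39 named genes, of 55358 genes in the data, that build the epithelial cytoskeleton and the contacts between epithelial cells. They were taken by name: 8 keratins, 3 epithelial adhesion genes, 9 claudins, 3 other tight junction membrane genes, 3 tight junction plaque genes, 2 desmosomal cadherins, 8 genes of the desmosome plaque and its envelope relatives, and 3 polarity genes. The list was chosen with earlier results of these data known. The RNA came from cultures of mouse embryonic fibroblasts, the connective tissue cells of the embryo, in 4 groups of 2 libraries each. These were Arid5a-/- cells (KO) without interleukin 6 (IL-6), wild-type cells (WT) without IL-6, KO cells with 100 ng/ml IL-6 and WT cells with 100 ng/ml IL-6, all for 24 h. Arid5a binds and stabilizes certain mRNAs of inflammation, and the study searched for long non-coding RNAs downstream of IL-6 and Arid5a. The labels name neither the deleted part of Arid5a, the number or sex of the embryos, the passage, nor separate cultures behind the 2 libraries of a group. The p-values therefore measure the spread between libraries, which may be technical.

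Keratins are the intermediate filaments of epithelia and are built as pairs of a type I and a type II protein, such as keratin 18 with keratin 8. Desmosomes tie these filaments to the neighbouring cell through cadherins and a plaque of desmoplakin, plakoglobin and plakophilins, while tight junctions seal the space between cells through claudins held by ZO scaffold proteins. Fibroblasts usually carry vimentin filaments in their place, whereas mesothelial cells, the lining of body cavities, carry simple-epithelium keratins and junctions together with vimentin.

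Levels are FPKM (fragments scaled to transcript length and to library size), summed here over the transcripts of a gene. Changes are differences of log2(FPKM + 1) ± SE, so that they understate the fold of low genes. Tests were limma's moderated test over the 13693 genes that reached 1 FPKM in 2 or more of the 8 libraries, two-sided, and a gene passed at a Benjamini-Hochberg adjusted p below 0.05. Depth read from steps in the low values was 37.0 to 47.1 M fragments per library, at which 3 fragments of a transcript of 2000 nt stand for 0.0351 to 0.0444 FPKM. Arid5a was at 5.51 to 8.47 FPKM in the 4 KO libraries and at 15.9 to 31.0 FPKM in the 4 WT libraries. Xist, made from the inactive X chromosome of female cells, averaged 56.9 ± 2.44 FPKM in KO and 0.00329 ± 0.00269 FPKM in WT without IL-6, while Y-linked Ddx3y was at 0 in KO and at 35.6 ± 1.46 FPKM in WT (SD, n = 2 each). The genotype and the sex of the embryos cannot be told apart in these libraries.

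Of the 39 genes, 26 reached the expression filter and 13 did not. Without IL-6, 19 of the 26 were higher and 3 lower in KO than in WT, against a background of 71% of all genes tested that passed in either direction, 36.4% higher and 34.5% lower. With IL-6, 20 were higher and 5 lower, against 71.7% of all genes, 36.9% higher and 34.8% lower. The same 19 genes were higher and the same 3 lower in both comparisons. The comparisons share no library, but both take their spread from the same fit over 8 libraries. Both also set the same genotypes side by side, with the same difference in sex, so they are not independent support. The share of all genes that passed the same way in both was not computed. The median difference between KO and WT over the 26 genes was 1.70 without IL-6 and 1.73 with it on the log2 scale, beside 0.01 over all genes tested in both comparisons. These counts and medians are no support by themselves, because 11 of the 26 reached 1 FPKM in KO libraries only and 2 in WT libraries only, and a gene let in by a single genotype had to differ. The list was also chosen with earlier results of these data known.

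Every KO library lay above every WT library for 21 of the 39 genes and below for 6, and the genotypes overlapped for 12. When genes under the filter were left out, KO libraries lay above for 19, below for 4 and overlapped for 3. Only these counts cover genes chosen by the same filter as all genes tested. They are no support by themselves either. The 11 genes at 1 FPKM in KO libraries only and the 2 in WT libraries only entered through the genotype where they are high. Among all genes tested, KO libraries lay entirely above WT libraries for 36.5%, entirely below for 33.9% and overlapped for 29.5%.

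**Figure D1:**
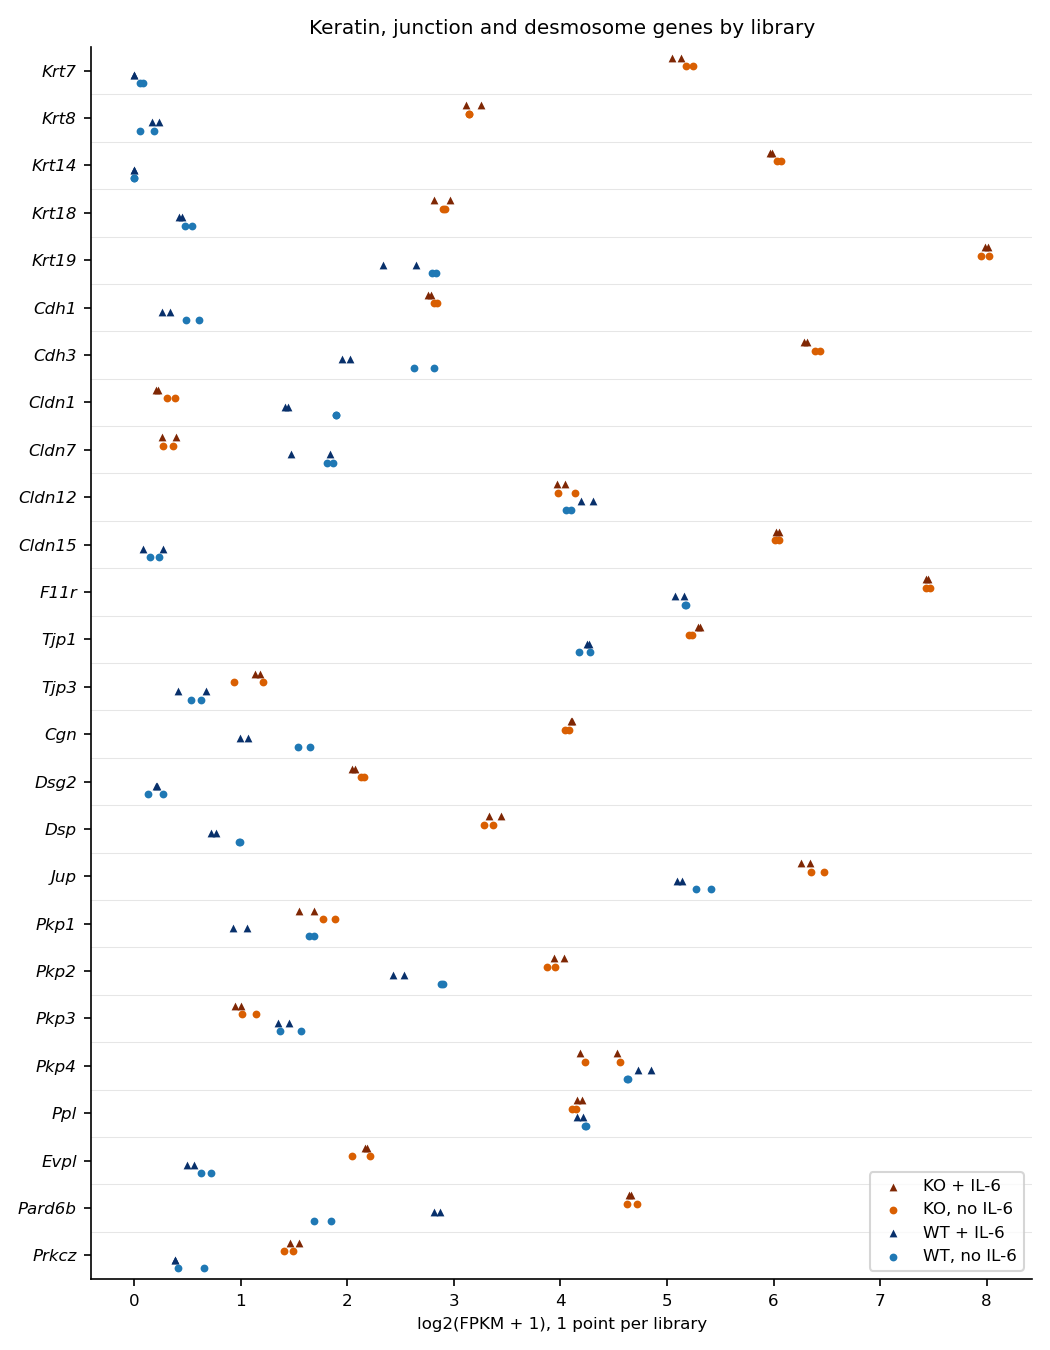
Level of each of the 26 tested genes in each library, as log2(FPKM + 1) on a linear axis, with 1 point per library (KO with IL-6, KO, WT with IL-6, WT). The 4 KO libraries stand to the right of the 4 WT libraries for 19 genes and to the left for 4 (Cldn1, Cldn7, Pkp3 and Pkp4), and they overlap for 3 (Cldn12, Pkp1 and Ppl).

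These are RNA levels of whole cultures, in which fewer cells of a type and less RNA per cell cannot be told apart. Mesothelial markers moved with the genotype: the 12 listed genes summed to 1987 to 2045 FPKM in KO libraries and to 54.0 to 67.0 FPKM in WT libraries. All 12 passed as higher in KO with and without IL-6, 9 of them (Upk3b, Upk1b, Wt1, Lrrn4, Bnc1, Gpm6a, Muc16, Krt8 and Krt18) were under 1 FPKM in every WT library, and 3 of the 12 (Krt8, Krt18 and Krt19) belong to the 39 genes. The 13 epithelial markers summed to 331 to 347 FPKM in KO and to 8.65 to 11.2 FPKM in WT libraries, almost all of it Krt19 and Krt14 in KO. Of these 13, Epcam, Krt5, Cldn3, Cldn4, Cldn7, Esrp1, Grhl2 and Ovol2 were under 1 FPKM in every KO library. The 10 fibroblast markers, which check the labelled cell type, summed to 5180 to 5370 FPKM in KO and to 7681 to 8926 FPKM in WT libraries, but they did not move together. Without IL-6 3 of them, Col1a1, Col3a1 and Dcn, were higher in KO (by 0.88, 2.09 and 2.25), Col1a2 did not pass, and 6 were lower, with Thy1 and Lum under 1 FPKM in every KO library. The lower sum in KO rests on S100a4, at 1054 ± 58.3 FPKM in KO and 5025 ± 105 FPKM in WT, and Vim. The sums of 8 endothelial markers were 12.2 to 13.1 FPKM in KO and 0.198 to 0.513 FPKM in WT libraries, those of 7 macrophage markers 3.69 to 5.09 FPKM in KO and 18.8 to 35.7 FPKM in WT libraries, and those of 5 smooth muscle markers 557 to 610 FPKM in KO and 48.9 to 116 FPKM in WT libraries. Each of these sums rests on few genes: 5 of the 8 endothelial, 5 of the 7 macrophage and 2 of the 5 smooth muscle markers were under 1 FPKM in every KO library, the macrophage sum is mostly Cd14 (1.99 FPKM in KO and 16.6 FPKM in WT without IL-6), and of the smooth muscle genes Acta2 and Tagln were higher and Cnn1 lower in KO. The part of these cell types in the differences below was not tested.

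The promoters of 3 genes are shown because their RNAs carry the results: Krt7 was near or at 0 in WT, and Pard6b and Cgn changed in opposite directions with IL-6 in WT. The sequences are RefSeq's bases upstream of the start site on GRCm38.p6, less those that GENCODE M21 counts as untranslated region of the same gene; the Krt7 window overlaps an exon of the non-coding transcript Krt7-205. Capitals mark an E-box of the kind bound by Snail and Zeb repressors (CACCTG, or CAGGTG on the other strand) and a match to a Grainyhead-like site (AACCNGTT, or AACNGGTT).
Krt7, chr15:101412153-101412401, plus strand: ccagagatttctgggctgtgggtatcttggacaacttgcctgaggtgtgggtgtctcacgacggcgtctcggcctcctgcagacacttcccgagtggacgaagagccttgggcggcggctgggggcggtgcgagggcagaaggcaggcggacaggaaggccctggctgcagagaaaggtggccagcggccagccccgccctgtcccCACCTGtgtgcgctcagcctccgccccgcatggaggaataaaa
Pard6b, chr2:168080754-168081003, plus strand: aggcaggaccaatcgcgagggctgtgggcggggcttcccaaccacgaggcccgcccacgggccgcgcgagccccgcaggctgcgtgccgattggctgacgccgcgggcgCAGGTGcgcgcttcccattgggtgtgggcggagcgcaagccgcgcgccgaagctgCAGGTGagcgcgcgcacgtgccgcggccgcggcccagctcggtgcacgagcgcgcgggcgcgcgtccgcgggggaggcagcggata
Cgn, chr3:94786493-94786732, minus strand: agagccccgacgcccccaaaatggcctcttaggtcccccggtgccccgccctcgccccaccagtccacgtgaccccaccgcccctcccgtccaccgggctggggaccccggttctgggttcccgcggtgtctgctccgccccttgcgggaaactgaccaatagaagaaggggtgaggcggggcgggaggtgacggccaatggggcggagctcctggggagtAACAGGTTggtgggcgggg

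Counted from the RefSeq start, the E-box began at base -44 in Krt7 and at bases -141 and -86 in Pard6b, and the Grainyhead-like match began at base -29 in Cgn. RefSeq promoters were matched for 28 of the 39 genes. An E-box on either strand lay within 250 bases upstream for 15 of the 28, beside 17.6% of the 9525 protein-coding genes tested and 19.1% of all 17491 with a promoter, counting a gene with any of its start sites. The 15 were Krt5, Krt7, Krt8, Krt18, Epcam, Cldn4, Cldn6, Cldn7, Ocln, F11r, Tjp3, Crb3, Pard6b, Prkcz and Pkp4. They include genes higher in KO (7 of the 13 matched genes that passed in both comparisons), Cldn7, which was lower, and genes under the filter. The Grainyhead-like match was in 1 of the 28, beside 1.9% of the tested and 2.0% of all protein-coding genes. A GC box (GGGCGG or its reverse CCGCCC) was in 21 of the 28, beside 65.8% of the tested and 45.8% of all protein-coding genes. An AP-1 site (TGANTCA) was in 3, a TEAD core (GGAATG or CATTCC) in 5 and a STAT site (TTCNNNGAA) in 2, beside 5.3, 12.7 and 7.1% of the tested and 7.2, 13.5 and 7.6% of all protein-coding genes. Some start sites differ between RefSeq and GENCODE, and such windows can hold exon bases. A match is a run of letters, and binding was not measured.

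Keratins were the most abundant difference: 2 of the 3 type II and 3 of the 5 type I members were higher in KO, with and without IL-6. The 5 type I members summed to 317 and 332 FPKM in KO and to 6.36 and 6.57 FPKM in WT without IL-6, and the 3 type II members summed to 42.9 and 44.8 FPKM in KO and to 0.175 and 0.097 FPKM in WT. With IL-6 the type I sums were 319 and 327 FPKM in KO and 4.42 and 5.61 FPKM in WT. The type II sums with IL-6 were 42.6 and 39.8 FPKM in KO and 0.171 and 0.126 FPKM in WT. KO libraries thus held RNA of both keratin types, with more type I than type II RNA per length, and WT libraries held little of either. The sums do not show that each keratin had its usual partner, and Krt5, that of Krt14, was listed at 0.

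**Figure D2:**
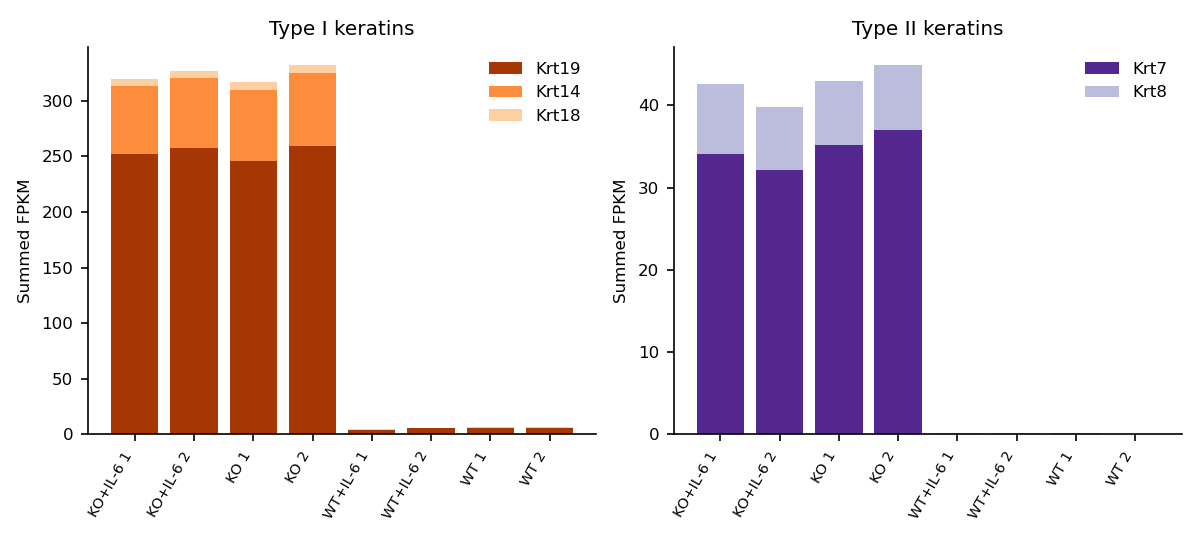
Stacked FPKM of the type I keratins Krt19, Krt14 and Krt18 (left) and of the type II keratins Krt7 and Krt8 (right) in each library, with bars starting at 0. Krt19 makes most of the type I sum and Krt7 most of the type II sum in the 4 KO libraries, and the type II bars of the 4 WT libraries are too low to see.

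Krt19 (chromosome 11, 100140810 to 100148665, minus strand), the smallest keratin and a marker of simple ducts and mesothelium, was at 246 and 259 FPKM in KO and at 5.95 and 6.11 FPKM in WT without IL-6. With IL-6 it was at 252 and 258 FPKM in KO and at 4.06 and 5.27 FPKM in WT. All KO libraries were far above all WT libraries, a 41.9-fold ratio of means without IL-6 and 54.7-fold with it (log2 differences 5.17 ± 0.09 and 5.51 ± 0.09; adjusted p = 5.47e-09 and 3.71e-09). It was the one keratin of the list that WT cells also held above 1 FPKM.

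Krt14 (chromosome 11, 100203162 to 100207548, minus strand), the type I keratin of basal epidermal cells, was at 64.2 and 66.0 FPKM in KO without IL-6 and at 61.4 and 62.3 FPKM in KO with it. It was listed at 0 in all 4 WT libraries. The difference on the log2(FPKM + 1) scale was 6.05 ± 0.05 in untreated cells (adjusted p = 2.9e-10) and 5.97 ± 0.05 in cells given IL-6 (adjusted p = 3.17e-10), values that depend on the pseudocount. Krt5, the type II partner of Krt14 in basal epidermis, was listed at 0 in all 8 libraries.

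Krt7 (chromosome 15, 101411043 to 101430313, plus strand), a type II keratin of ducts and mesothelium, was at 35.1 and 37.0 FPKM in KO and at 0.0364 and 0.0585 FPKM in WT without IL-6. With IL-6 it was at 34.1 and 32.1 FPKM in KO and was listed at 0 in both WT libraries. The differences were 5.14 ± 0.06 (adjusted p = 1.2e-09) and 5.09 ± 0.06 (adjusted p = 1.2e-09). The sum over transcripts overstates full-length Krt7 RNA: in untreated KO the 4094-nt coding transcript Krt7-201 held 3.39 ± 0.90 FPKM, while the 642-nt coding fragment Krt7-204 held 12.05 ± 0.13, the non-coding Krt7-203 held 9.25 ± 0.85 and the retained-intron form Krt7-202 held 8.47 ± 0.82 FPKM (SD, n = 2). In Krt19 the coding transcript Krt19-201 held 164 ± 1.61 FPKM and the non-coding Krt19-203 held 88.8 ± 7.93 FPKM in untreated KO.

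Krt8 and Krt18, the keratin pair of simple epithelia, lie next to each other on chromosome 15 (101996698 to 102004482, minus strand, and 102028180 to 102032027, plus strand). Krt8 was at 7.82 and 7.84 FPKM in KO and at 0.139 and 0.0388 FPKM in WT without IL-6, and at 8.56 and 7.66 FPKM in KO and at 0.171 and 0.126 FPKM in WT with it. Krt18 was at 6.47 and 6.56 FPKM in KO and at 0.392 and 0.457 FPKM in WT without IL-6, and at 6.01 and 6.81 FPKM in KO and at 0.363 and 0.337 FPKM in WT with it. Both partners stood at similar levels in KO libraries, and neither genotype's libraries overlapped the other's. Krt8 was higher in KO by 3.02 ± 0.09 (adjusted p = 6.55e-08) and 2.99 ± 0.09 (adjusted p = 6.39e-08) without and with IL-6. Krt18 was higher by 2.40 ± 0.08 (adjusted p = 1.65e-07) and 2.45 ± 0.08 (adjusted p = 1.35e-07). Krt17, a keratin of skin appendages and wounds, and Krt20, a keratin of gut lining, did not exceed 0.0708 and 0.0615 FPKM in any library.

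**Figure D3:**
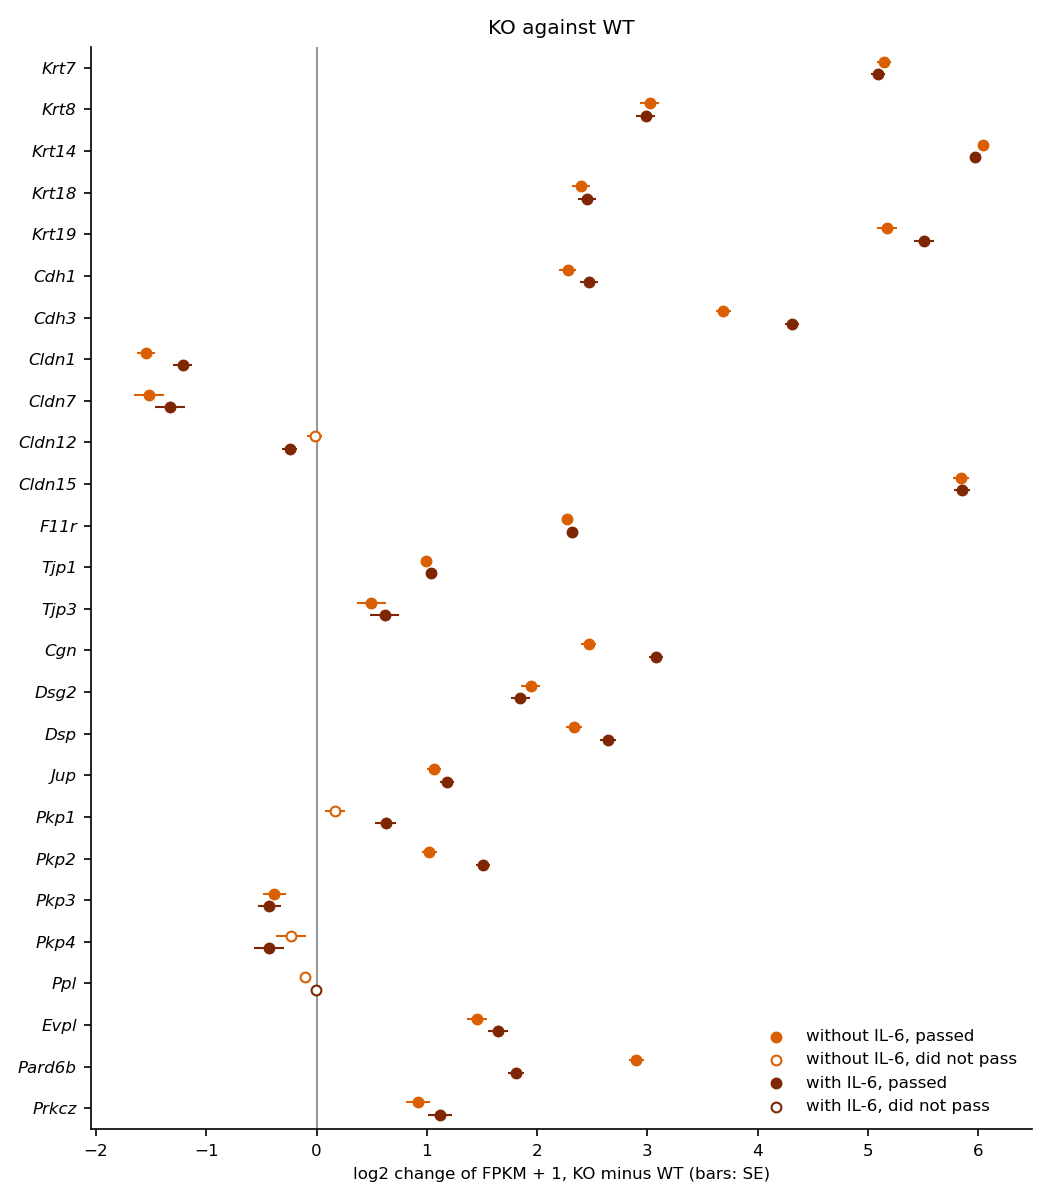
Difference KO minus WT on the log2(FPKM + 1) scale for the 26 tested genes, without and with IL-6 (bars, SE from the fit over 8 libraries; filled, adjusted p below 0.05). Krt14, Cldn15, Krt19 and Krt7 stand farthest to the right, at 5.09 to 6.05, and Cldn1 and Cldn7 farthest to the left at -1.54 and -1.52 without IL-6.

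Classical cadherins join cells at adherens junctions. Cdh3 (P-cadherin, chromosome 8, 106510891 to 106557297, plus strand) was at 82.5 and 85.3 FPKM in KO and at 6.02 and 5.18 FPKM in WT without IL-6, and at 77.2 and 78.3 FPKM in KO and at 3.07 and 2.87 FPKM in WT with it. Its neighbour Cdh1 (E-cadherin, chromosome 8, 106603351 to 106670246, plus strand) was at 6.02 and 6.15 FPKM in KO and at 0.401 and 0.527 FPKM in WT without IL-6, and at 5.89 and 5.78 FPKM in KO and at 0.197 and 0.265 FPKM in WT with it. Both were higher in every KO library, with P-cadherin the more abundant in KO. The differences were 3.69 ± 0.07 (adjusted p = 5.83e-09) and 4.31 ± 0.07 (adjusted p = 2.79e-09) for Cdh3, and 2.28 ± 0.08 (adjusted p = 1.96e-07) and 2.47 ± 0.08 (adjusted p = 1.16e-07) for Cdh1, without and with IL-6. Epcam, a surface protein of most simple epithelia, was at 0.487 to 0.636 FPKM in KO libraries and at 0.421 to 0.662 FPKM in WT libraries. It thus stayed under 1 FPKM where keratins and cadherins were high.

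Claudins, the strands of the tight junction, went both ways: of 9 members 4 were tested, 1 higher and 2 lower in KO without IL-6 and 1 higher and 3 lower with it. Cldn15 (chromosome 5, 136966616 to 136975858, plus strand), which in gut forms pores for sodium ions, was at 63.8 and 65.1 FPKM in KO and at 0.177 and 0.107 FPKM in WT without IL-6. With IL-6 it was at 64.0 and 65.1 FPKM in KO and at 0.0617 and 0.209 FPKM in WT. KO exceeded WT by 5.84 ± 0.08 (adjusted p = 1.4e-09) and 5.85 ± 0.08 (adjusted p = 1.23e-09), and its 2 full-length coding transcripts, Cldn15-201 and Cldn15-202, held 19.4 ± 0.39 and 44.9 ± 1.27 FPKM in untreated KO (SD, n = 2).

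Cldn1, a barrier-forming claudin of epidermis, was at 0.307 and 0.238 FPKM in KO and at 2.71 and 2.70 FPKM in WT without IL-6, and at 0.154 and 0.167 FPKM in KO and at 1.67 and 1.71 FPKM in WT with it. Cldn7, a claudin of the basolateral membrane, was at 0.206 and 0.285 FPKM in KO and at 2.63 and 2.50 FPKM in WT without IL-6, and at 0.316 and 0.197 FPKM in KO and at 2.58 and 1.77 FPKM in WT with it. Both were lower in all KO than in all WT libraries. Cldn1 fell by 1.54 ± 0.08 (adjusted p = 2.01e-06) and by 1.21 ± 0.08 (adjusted p = 7.45e-06), and Cldn7 fell by 1.52 ± 0.13 (adjusted p = 2.93e-05) and by 1.33 ± 0.13 (adjusted p = 6.04e-05), in KO without and with IL-6.

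Cldn12, a claudin lacking the scaffold-binding tail motif of its relatives, was at 14.8 and 16.6 FPKM in KO and at 16.1 and 15.6 FPKM in WT without IL-6, and the difference of -0.02 ± 0.07 did not pass (adjusted p = 0.832, 95% interval -0.18 to 0.145). With IL-6 it was at 14.7 and 15.5 FPKM in KO and at 18.8 and 17.3 FPKM in WT, a fall of 0.24 ± 0.07 (adjusted p = 0.0146). That call was lost without replicate 1 of KO with IL-6 (adjusted p = 0.0824), without replicate 1 of WT with IL-6 (0.09) and with equal totals per library (0.0786, a difference of -0.15), and on coding transcripts alone the difference was -0.14 (adjusted p = 0.0401). The other 5 claudins, Cldn3, Cldn4, Cldn6, Cldn10 and Cldn11, were under the filter. Their highest library values were 1.13 FPKM for Cldn3 (in WT with IL-6), 0.0452 for Cldn4, 0.0277 for Cldn6, 0.878 for Cldn10 and 0.0738 FPKM for Cldn11. In a fit with no filter Cldn3 was lower in KO, with differences of -0.72 ± 0.11 in untreated cells (adjusted p = 0.00338) and of -0.89 ± 0.11 in cells given IL-6 (adjusted p = 0.00139).

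F11r (junctional adhesion molecule A, chromosome 1, 171437535 to 171464603, plus strand), an immunoglobulin-like protein of tight junctions, was second only to Krt19 among the 39 genes in mean FPKM in KO. It was at 171 and 176 FPKM in KO and at 34.9 and 35.2 FPKM in WT without IL-6, and at 173 and 171 FPKM in KO and at 34.7 and 32.8 FPKM in WT with it. The libraries did not overlap between genotypes, and the ratio of means was 4.95 without IL-6 and 5.11 with it (log2 differences 2.27 ± 0.04 and 2.32 ± 0.04; adjusted p = 4.98e-09 and 4.04e-09). Occludin (Ocln) and tricellulin (Marveld2), membrane proteins of tight junctions, were under the filter. Ocln was at 0.192 to 0.243 FPKM in KO libraries and at 0 to 0.043 FPKM in WT libraries, whereas Marveld2 was listed at 0 in all KO libraries and stood at 0.0373 to 0.0884 FPKM in WT libraries.

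On the cytoplasmic side of the tight junction, Tjp1 (the scaffold ZO-1) was at 36.6 and 35.8 FPKM in KO and at 17.0 and 18.3 FPKM in WT without IL-6, and at 38.1 and 38.7 FPKM in KO and at 18.2 and 18.03 FPKM in WT with it. Cingulin (Cgn, chromosome 3, 94760069 to 94786492, minus strand), which links that plaque to the cytoskeleton, was at 15.9 and 15.5 FPKM in KO and at 2.13 and 1.90 FPKM in WT without IL-6, and at 16.2 and 16.1 FPKM in KO and at 0.985 and 1.09 FPKM in WT with it. Both were higher in every KO library. Tjp1 differed by 0.99 ± 0.05 (adjusted p = 9.08e-07) and 1.04 ± 0.05 (adjusted p = 6.63e-07), and Cgn by 2.47 ± 0.07 (adjusted p = 4.48e-08) and 3.08 ± 0.07 (adjusted p = 1.38e-08), without and with IL-6.

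Tjp3 (the scaffold ZO-3) was at 0.919 and 1.32 FPKM in KO and at 0.444 and 0.544 FPKM in WT without IL-6, and at 1.26 and 1.20 FPKM in KO and at 0.592 and 0.327 FPKM in WT with it. The differences, higher in KO, were 0.50 ± 0.13 (adjusted p = 0.011) and 0.62 ± 0.13 (adjusted p = 0.00386) without and with IL-6. Without IL-6 that call was lost without KO replicate 2 (adjusted p = 0.0681) or WT replicate 1 (0.0555). Transcripts classed as protein coding held 82.6% of the summed Tjp3 FPKM in KO without IL-6 and 88.3% in KO with it. On those alone Tjp3 did not reach the filter. The exons of Tjp3 overlap those of Apba3 on the opposite strand. Apba3 held 34.9 to 39.3 FPKM in KO and 58.3 to 74.8 FPKM in WT libraries. Since use of the strand in counting is not stated, the level of Tjp3 is uncertain.

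In the desmosome, Dsg2 (desmoglein 2, a desmosomal cadherin of simple epithelia) was at 3.36 and 3.46 FPKM in KO and at 0.0945 and 0.206 FPKM in WT without IL-6, and at 3.13 and 3.20 FPKM in KO and at 0.155 and 0.162 FPKM in WT with it. Dsp (desmoplakin, the protein that anchors keratin filaments) was at 9.34 and 8.74 FPKM in KO and at 0.995 and 0.982 FPKM in WT without IL-6, and at 9.04 and 9.86 FPKM in KO and at 0.699 and 0.649 FPKM in WT with it. Neither gene's libraries overlapped between genotypes. Dsg2 was higher in KO by 1.94 ± 0.09 (adjusted p = 6.88e-07) and 1.85 ± 0.09 (adjusted p = 8.47e-07), and Dsp by 2.34 ± 0.07 (adjusted p = 1.08e-07) and 2.64 ± 0.07 (adjusted p = 5.17e-08), without and with IL-6. Dsc2 (desmocollin 2), the partner cadherin, was under the filter at 0.186 to 0.213 FPKM in KO libraries and at 0.0962 to 0.134 FPKM in WT libraries.

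Jup (plakoglobin), which serves both desmosomes and adherens junctions, was at 80.5 and 87.6 FPKM in KO and at 41.6 and 37.6 FPKM in WT without IL-6, and at 75.4 and 80.0 FPKM in KO and at 34.2 and 33.1 FPKM in WT with it. Its ratio of means was 2.12 without IL-6 and 2.31 with it (1.07 ± 0.06, adjusted p = 3.43e-06, and 1.18 ± 0.06, adjusted p = 1.82e-06). Evpl (envoplakin), a plakin of the cornified envelope, was at 3.14 and 3.65 FPKM in KO and at 0.647 and 0.546 FPKM in WT without IL-6, and at 3.48 and 3.54 FPKM in KO and at 0.476 and 0.406 FPKM in WT with it. Its differences were 1.46 ± 0.09 (adjusted p = 4.48e-06) and 1.65 ± 0.09 (adjusted p = 2.14e-06) without and with IL-6. Its binding partner periplakin (Ppl) was at 16.3 and 16.8 FPKM in KO and at 17.7 and 17.9 FPKM in WT without IL-6, and at 16.8 and 17.4 FPKM in KO and at 17.5 and 16.8 FPKM in WT with it. It was the one tested gene that passed in none of the 5 comparisons, with 95% intervals of the genotype difference of -0.21 to 0.005 without IL-6 and -0.115 to 0.1 with it. After quantile normalization it passed as lower in KO without IL-6 (-0.15, adjusted p = 0.0159).

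The plakophilins, armadillo proteins of the plaque, did not move together. Pkp2, found in simple epithelia and heart, was at 14.5 and 13.7 FPKM in KO and at 6.34 and 6.47 FPKM in WT without IL-6, and at 14.4 and 15.4 FPKM in KO and at 4.38 and 4.79 FPKM in WT with it. Its RNA was higher in all KO libraries, by 1.02 ± 0.06 (adjusted p = 4.54e-06) and 1.51 ± 0.06 (adjusted p = 5.05e-07). Pkp1, the form of stratified epithelia, was at 2.70 and 2.42 FPKM in KO and at 2.13 and 2.22 FPKM in WT without IL-6 (0.17 ± 0.09, adjusted p = 0.143, 95% interval -0.05 to 0.38). With IL-6 it was at 1.93 and 2.22 FPKM in KO and at 1.08 and 0.907 FPKM in WT, and higher in KO by 0.63 ± 0.09 (adjusted p = 0.000516).

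Pkp3, which binds most desmosomal proteins, was at 1.21 and 1.02 FPKM in KO and at 1.58 and 1.96 FPKM in WT without IL-6, and at 1.005 and 0.926 FPKM in KO and at 1.55 and 1.74 FPKM in WT with it. It fell by 0.38 ± 0.10 (adjusted p = 0.0114) and by 0.43 ± 0.10 (adjusted p = 0.00684) in KO. Without IL-6 that call was lost without KO replicate 2 (adjusted p = 0.0644) or WT replicate 2 (0.0688). Transcripts classed as protein coding held 24.2% of the summed Pkp3 FPKM in KO and 37.6% in WT without IL-6, and on those alone Pkp3 did not reach the filter. Pkp4, a relative also found at adherens junctions, was at 22.6 and 17.8 FPKM in KO and at 23.6 and 23.8 FPKM in WT without IL-6 (-0.23 ± 0.14, adjusted p = 0.16). When only coding transcripts were summed, Pkp4 was lower in KO both in untreated cells (-0.39, adjusted p = 0.00227) and in cells given IL-6 (-0.61, adjusted p = 0.00014). With all transcripts summed, Pkp4 in cells given IL-6 was at 17.1 and 22.1 FPKM in KO and at 27.8 and 25.6 FPKM in WT. It fell there by 0.43 ± 0.14 (adjusted p = 0.0214). This last call was lost without replicate 1 of KO with IL-6 (adjusted p = 0.131), without replicate 1 of WT with IL-6 (0.104) and with no filter (0.0697).

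Polarity proteins place the junctions along the side of the cell. Pard6b (a PAR6 scaffold, chromosome 2, 168081004 to 168101203, plus strand) was at 25.3 and 23.6 FPKM in KO and at 2.23 and 2.60 FPKM in WT without IL-6, and at 24.3 and 23.9 FPKM in KO and at 6.32 and 6.03 FPKM in WT with it. Prkcz (the atypical protein kinase C zeta, which binds PAR6) was at 1.65 and 1.81 FPKM in KO and at 0.570 and 0.329 FPKM in WT without IL-6, and at 1.92 and 1.75 FPKM in KO and at 0.305 and 0.304 FPKM in WT with it. Both were higher in every KO library, Pard6b by 2.90 ± 0.07 (adjusted p = 2.43e-08) and 1.81 ± 0.07 (adjusted p = 2.68e-07), and Prkcz by 0.92 ± 0.11 (adjusted p = 0.000148) and 1.12 ± 0.11 (adjusted p = 4.62e-05). Crb3, the Crumbs protein of most epithelia, was under the filter at 0.0245 to 0.343 FPKM in KO libraries and at 0 to 0.118 FPKM in WT libraries.

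In a fit with no filter, 6 of the 13 genes under it also passed without IL-6: Cldn3 and Marveld2 were lower, and Krt17, Krt20, Ocln and Dsc2 higher. With IL-6 Cldn3, Marveld2, Ocln and Dsc2 passed in the same directions. Apart from Cldn3, the highest value of these genes in any library was 0.243 FPKM (Ocln). The share of all genes that passed in that fit was not computed, so these counts stand without a background.

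IL-6 is the second question of the design: how far it moved these genes in each genotype. The IL-6 comparisons share their libraries with those of genotype above. In KO cells 0 of the 26 genes passed by limma, beside 0.0219% of all genes tested (3 genes), and 0 of the 26 had an unadjusted p below 0.05, beside 1025 of all genes (7.49%). The changes ran from -0.21 (Pkp1) to 0.08 on the log2 scale, and their 95% intervals reached from -0.43 to 0.39. In WT cells 6 of the 26 passed, 1 higher and 5 lower, beside 15.7% of all genes, 8.3% higher and 7.41% lower.

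**Figure D4:**
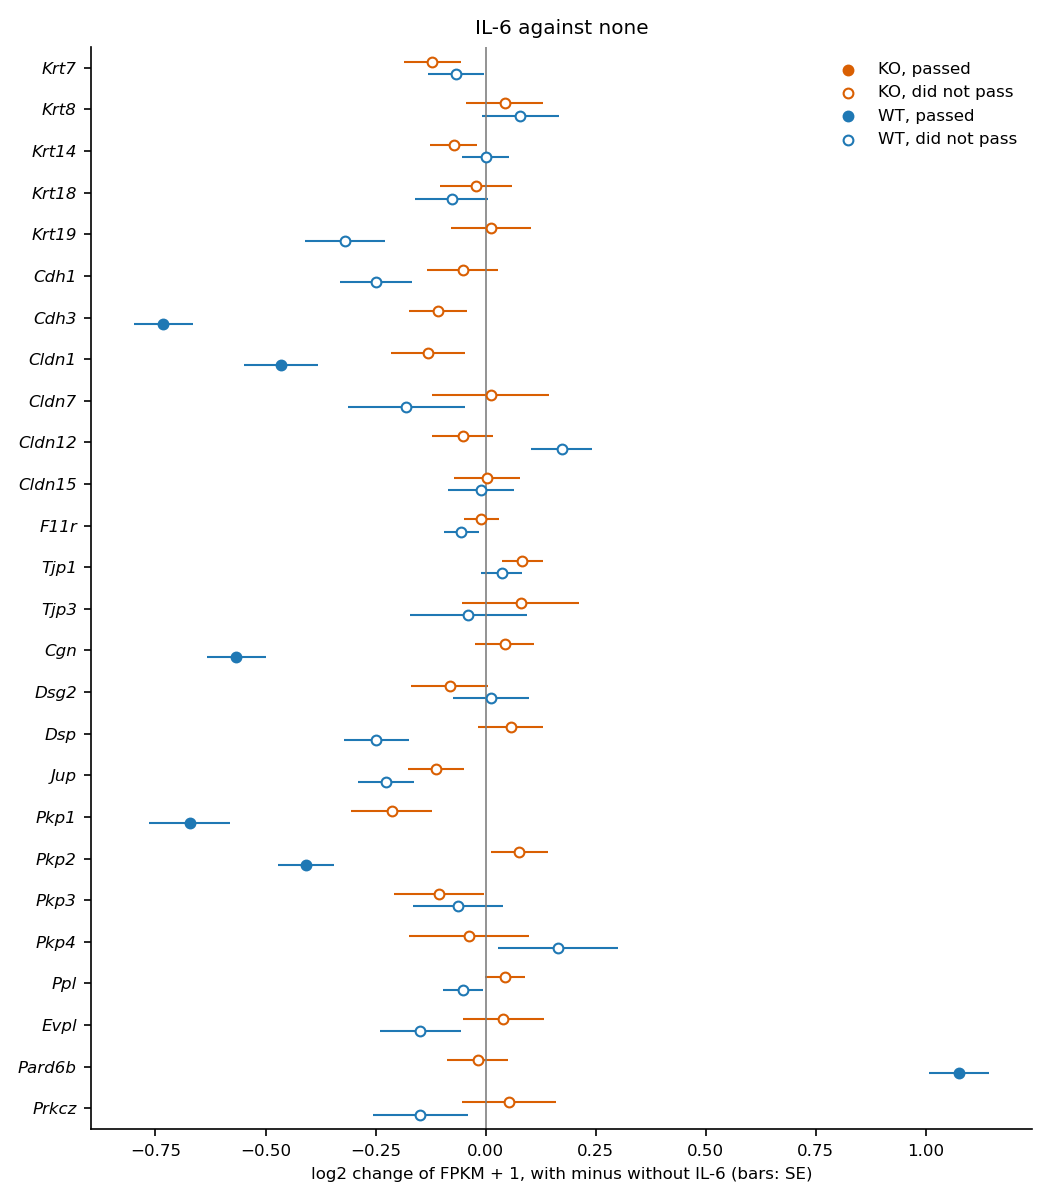
Change with IL-6 on the log2(FPKM + 1) scale in KO and in WT for the 26 tested genes (bars, SE from the fit over 8 libraries; filled, adjusted p below 0.05). All KO changes lie between -0.21 and 0.08, while in WT Pard6b stands at 1.07 and Cdh3, Pkp1, Cgn, Cldn1 and Pkp2 between -0.73 and -0.41.

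With all transcripts summed, Pard6b was the one gene of the list that passed as higher with IL-6 in WT. It averaged 6.18 ± 0.21 FPKM in WT with IL-6 against 2.41 ± 0.26 FPKM without it (SD, n = 2 each), a ratio of 2.56 (1.07 ± 0.07, adjusted p = 0.000103). In KO it was at 24.1 ± 0.28 FPKM with IL-6 and at 24.5 ± 1.17 FPKM without it (-0.02 ± 0.07). The WT libraries with IL-6 lay between those of untreated WT and those of KO. The difference of the IL-6 changes, KO minus WT, was -1.09 ± 0.10 (adjusted p = 0.00158), and it passed in all alternatives run. No STAT site was found in the 250 bases upstream of Pard6b, where 7.1% of the tested protein-coding genes had one. The part of STAT binding in the change was not tested.

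Cdh3, Cgn and Pkp2 fell with IL-6 in WT and did not pass in KO. Cdh3 averaged 2.97 ± 0.14 FPKM with IL-6 and 5.60 ± 0.59 FPKM without it in WT, a ratio of 0.530 (-0.73 ± 0.07, adjusted p = 0.000503), and its change in KO was -0.11 ± 0.07. Cgn averaged 1.04 ± 0.075 FPKM with IL-6 and 2.02 ± 0.16 FPKM without it in WT, a ratio of 0.515 (-0.57 ± 0.07, adjusted p = 0.00161), and its change in KO was 0.04 ± 0.07. The transcripts of Cgn did not move alike in WT: those classed as protein coding held 0.258 FPKM with IL-6 and 2.02 FPKM without it, and most of the rest with IL-6 was Cgn-205 (0.595 and 0.840 FPKM in the 2 libraries), which GENCODE M21 does not hold. On coding transcripts alone the change of Cgn in WT was -1.27 (adjusted p = 0.000529) and the difference of the IL-6 changes 1.30 (adjusted p = 0.00596). These sums leave out Cgn-205, whose level was unsteady within the KO groups. It was at 2.42 and 0.00223 FPKM in the KO libraries without IL-6 and at 0.00223 and 1.92 FPKM with it. The split of Cgn between transcripts, and the coding values with it, are thus uncertain. Pkp2 averaged 4.59 ± 0.29 FPKM with IL-6 and 6.41 ± 0.090 FPKM without it in WT, a ratio of 0.716 (-0.41 ± 0.06, adjusted p = 0.00614), and its change in KO was 0.08 ± 0.06. These 3 genes, high in KO, thus moved further from the KO level in WT cells given IL-6, and no WT library with IL-6 overlapped an untreated one.

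The differences of the IL-6 changes passed for 4 of the 26 genes, 3 higher and 1 lower, beside 6.06% of all genes, 2.54% higher and 3.52% lower. Besides Pard6b they were Cdh3 (0.62 ± 0.09, adjusted p = 0.0114), Cgn (0.61 ± 0.09, adjusted p = 0.0122) and Pkp2 (0.48 ± 0.09, adjusted p = 0.0261). These calls were narrow. That of Cdh3 was lost without replicate 1 of KO (adjusted p = 0.0514) or replicate 2 of KO with IL-6 (0.0547), and that of Cgn without replicate 2 of KO (0.0569) or either replicate of KO with IL-6 (0.0545 and 0.0551). That of Pkp2 was lost whichever library other than replicate 2 of WT with IL-6 was left out (0.058 to 0.0956), and with no filter (0.0619). The IL-6 change of Pkp2 within WT was lost with only the groups compared in the fit (0.0597).

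**Figure D5:**
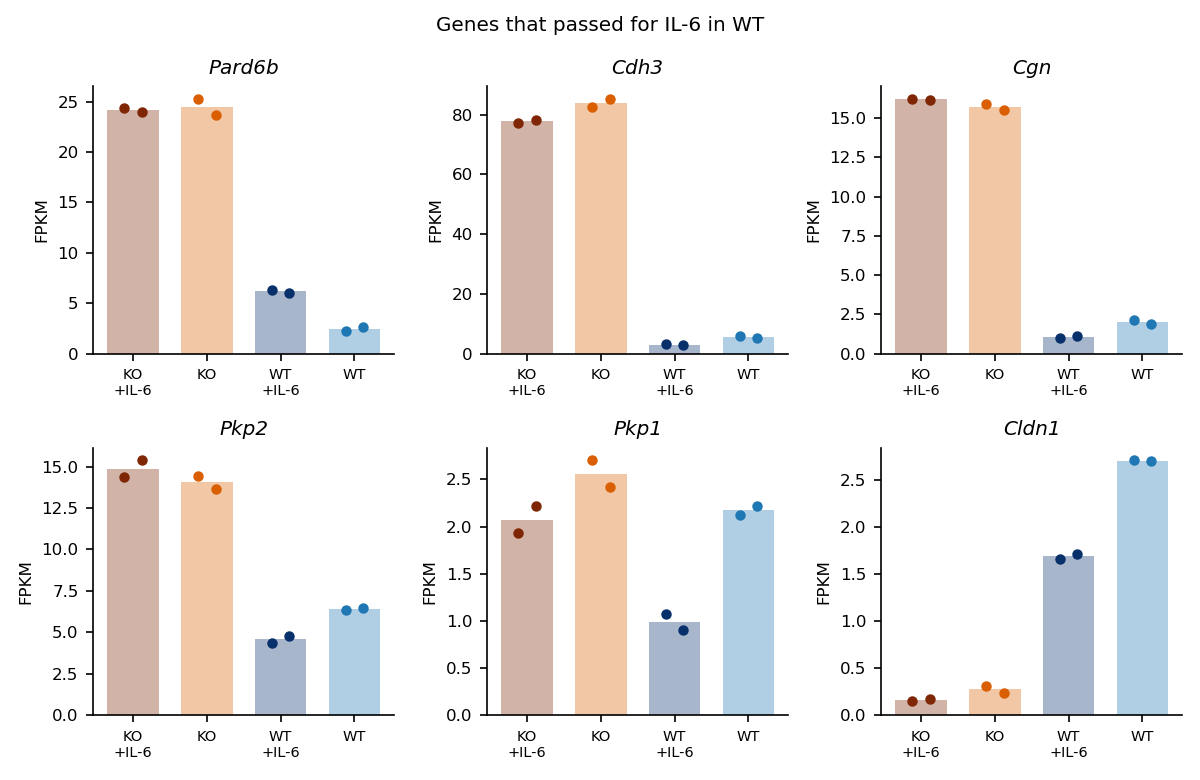
FPKM of the 6 genes that passed for IL-6 in WT, with each library as a point and the mean of 2 libraries as a bar from 0, in KO with IL-6, KO, WT with IL-6 and WT. Pard6b is higher in WT with IL-6 than in WT (6.18 and 2.41 FPKM), the other 5 genes are lower, and KO means are 24.1 and 24.5 FPKM for Pard6b.

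Pkp1 averaged 0.991 ± 0.12 FPKM with IL-6 and 2.17 ± 0.063 FPKM without it in WT (-0.67 ± 0.09, adjusted p = 0.00337), and 2.07 ± 0.20 FPKM with IL-6 and 2.56 ± 0.20 FPKM without it in KO (-0.21 ± 0.09, adjusted p = 0.666). Cldn1 averaged 1.69 ± 0.035 FPKM with IL-6 and 2.71 ± 0.0075 FPKM without it in WT (-0.46 ± 0.08, adjusted p = 0.0111). The difference of the IL-6 changes did not pass for Pkp1 (0.46 ± 0.13, adjusted p = 0.0934) or Cldn1 (0.33 ± 0.12, adjusted p = 0.165), so that a change confined to WT was not shown for either. The WT call of Cldn1 was lost without either untreated WT replicate (adjusted p = 0.0521 and 0.0536), without replicate 1 of WT with IL-6 (0.056) and with a pseudocount of 0.1 (0.0572).

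Jup (-0.23 ± 0.06, adjusted p = 0.0534), Krt19 (-0.32 ± 0.09, adjusted p = 0.0554), Dsp (-0.25 ± 0.07, adjusted p = 0.0642) and Cdh1 (-0.25 ± 0.08, adjusted p = 0.0824) had lower values with IL-6 in WT that missed the threshold. When only transcripts classed as protein coding were summed, all 4 passed (adjusted p = 0.0189, 0.000373, 0.0385 and 0.0436). Their changes were -0.33, -0.41, -0.25 and -0.25, so those of Dsp and Cdh1 kept their size. The coding value of Jup is uncertain, because the non-coding Jup-205 was at 4.35 and 0 FPKM in the WT libraries with IL-6. On coding transcripts Pkp4 passed as higher with IL-6 in WT (0.30, adjusted p = 0.0349). The difference of the IL-6 changes of Krt19 passed on these transcripts too (0.38, adjusted p = 0.00667).

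The related genes outside the 39 also moved in both directions. Their counts without IL-6 stand beside 36.4% of all genes tested that were higher in KO and 34.5% that were lower. The lists were chosen with earlier results of these data known, so these counts are no support by themselves. Of 13 other keratins 4 were tested, and without IL-6 Krt13 and Krt15 were higher and Krt10 and Krt80 lower in KO. Over all 54 keratin genes in the files, 8 averaged 1 FPKM or more in KO and 3 in WT without IL-6, and 9 in KO and 3 in WT with it. Of 10 other desmosome and cornified envelope genes 4 were tested, 2 higher in KO and 1 lower without IL-6. The lower one was Perp, a tetraspan protein of desmosomes, at 3.20 ± 0.31 FPKM in KO and 32.0 ± 0.16 FPKM in WT (-2.98 ± 0.06, adjusted p = 1.4e-08), and the higher ones were the envelope genes Ivl (involucrin) and Lor (loricrin).

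Of 23 other tight junction membrane genes 9 were tested, 6 higher in KO and 1 lower (Cldnd1) without IL-6. All genes tested gave 36.4% higher and 34.5% lower. Cxadr (the coxsackie and adenovirus receptor) was at 146 ± 2.06 FPKM in KO and 2.67 ± 0.18 FPKM in WT (5.32 ± 0.07, adjusted p = 2.02e-09). Lsr (angulin-1, which marks contacts of 3 cells) was at 43.1 ± 0.083 FPKM in KO and 0.129 ± 0.11 FPKM in WT (5.29 ± 0.08, adjusted p = 2.9e-09), and its relative Ildr2 at 33.6 ± 0.31 FPKM in KO and 1.19 ± 0.048 FPKM in WT (3.98 ± 0.06, adjusted p = 2.99e-09). Of 25 other scaffold and polarity genes, 24 of them in the files, 22 were tested, 13 higher and 2 lower without IL-6. Crb2, a Crumbs protein, was at 34.99 ± 0.35 FPKM in KO and 0.0170 ± 0.013 FPKM in WT (5.14 ± 0.06, adjusted p = 8.48e-10). Amotl2, which binds polarity proteins, was higher by 1.58 ± 0.06 (adjusted p = 2.08e-07). Cgnl1 (paracingulin), the relative of cingulin, was at 4.69 ± 0.078 FPKM in KO and 34.6 ± 0.28 FPKM in WT (-2.65 ± 0.05, adjusted p = 7.54e-09), the reverse of Cgn.

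Of 10 adherens junction partners 9 were tested, 4 higher in KO and 4 lower without IL-6. Among all genes tested 36.4% were higher and 34.5% lower, so these counts leaned to neither side, as over all genes. Nectin2, an adhesion molecule, was at 78.6 ± 0.11 FPKM in KO and 3.78 ± 0.41 FPKM in WT (4.06 ± 0.07, adjusted p = 4.65e-09), and N-cadherin (Cdh2) at 82.1 ± 1.61 FPKM in KO and 24.5 ± 0.11 FPKM in WT (1.71 ± 0.04, adjusted p = 1.84e-08). Vcl (vinculin) and Ctnnd1 (p120 catenin) were higher by 0.98 ± 0.04 and 0.73 ± 0.04 (adjusted p = 4.93e-07 and 1.84e-06). The 4 lower ones, named here beyond the rule and with their values known, were Ctnnb1 (beta-catenin, -0.45 ± 0.04), Cdh11 (-0.51 ± 0.04), Nectin1 (-0.47 ± 0.11) and Nectin3 (-0.82 ± 0.09), with adjusted p = 2.99e-05, 2.86e-05, 0.00706 and 9.03e-05. Of 4 mesenchymal intermediate filament genes 3 were tested and all 3 (Vim, Nes and Synm) were lower in KO. Vimentin (Vim) was at 1055 ± 46.6 FPKM in KO and 2236 ± 74.0 FPKM in WT (-1.08 ± 0.04, adjusted p = 4.48e-07), so KO libraries held vimentin together with keratins. Of 14 regulators of epithelial genes 3 were tested: the splicing factor Esrp2 was higher in KO (2.70 ± 0.16, adjusted p = 3.7e-06) and the transcription factor Elf3 lower (-1.85 ± 0.10, adjusted p = 2.26e-06). Of the mesothelial and epithelial lists, Wt1, which drives mesothelial identity, averaged 111 ± 3.03 FPKM in KO without IL-6 and was listed at 0 in WT, while the epithelial factor Grhl2 stayed under 1 FPKM in all libraries.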

How the data were processed

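Per the labels' protocols, the 8 libraries were made from total RNA (RNeasy) with the TruSeq kit for stranded mRNA. The authors deposited FPKM per transcript, made with HISAT2 and Cufflinks 2.2.1 on GRCm38.p6, per the submitters' processing notes. The strand setting is not given in the sources used here.

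FPKM of 142869 transcripts were summed to 55358 genes by name, of which 13693 at 1 FPKM or more in 2 libraries were tested. The test was limma 3.58.1 (R 4.3.3) on log2(FPKM + 1), with 4 group means, an intensity trend, 4 residual degrees of freedom and Benjamini-Hochberg adjustment over all genes tested. Because the values are FPKM and not counts, depth was fitted to steps in low values (in each library, 91.2 to 93.2% of 841 to 942 low values came within 0.1 of whole fragments), and no count model was used. Library totals were 536816 to 584995 FPKM, 2 libraries of a group correlated at 0.9927 to 0.9935 across genes, and no 2 held the same values.

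Members, lists, markers, motifs and tests were chosen with earlier results of these data known. Genes passing in any comparison, or averaging 5 FPKM or more in a group, are given in every library, and of each other list up to 4 genotype and 2 IL-6 genes with the smallest p are named. A gene that this rule names is not reported here. Xist and Ddx3y were added after values were seen. Positions are from GENCODE M21 (GRCm38), in which 97.11% of transcripts were found. The procedure was tested on simulated data. Alternatives were other scalings, pseudocounts and filters, no trend, a replicate block, fewer groups in the fit, leaving out each library and, chosen after seeing the data, coding transcripts only. Tables were made with Python 3.11.15, numpy 2.4.6 and pandas 2.3.3, and figures with matplotlib 3.10.9.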

Additional observations from a re-analysis of the deposited data

Results flagged for a closer look

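The change with IL-6 differed between KO and WT cells, by the test of the difference itself (KO minus WT, log2 scale), for 4 of the 39 genes: Pard6b (-1.09), Cdh3 (0.62), Cgn (0.61) and Pkp2 (0.48). Among the related genes that were named, it also differed for Cxadr (-0.76, adjusted p = 0.00856), Nectin2 (-0.51, adjusted p = 0.027), Perp (0.64, adjusted p = 0.0087), Afdn (0.58, adjusted p = 0.0106), Cgnl1 (0.40, adjusted p = 0.0204), Vcl (0.36, adjusted p = 0.0149) and Vim (0.32, adjusted p = 0.0317). Cxadr averaged 169 ± 7.43 FPKM in KO with IL-6 and 146 ± 2.06 FPKM in KO without it, a change of 0.21 ± 0.07 that did not pass (adjusted p = 0.589), and 6.22 ± 0.73 FPKM in WT with IL-6 and 2.67 ± 0.18 FPKM in WT without it, a rise of 0.98 ± 0.07 (adjusted p = 0.000224). Perp averaged 2.84 ± 0.075 FPKM in KO with IL-6 and 3.20 ± 0.31 FPKM in KO without it (-0.13 ± 0.06, adjusted p = 0.709), and 18.4 ± 0.031 FPKM in WT with IL-6 and 32.0 ± 0.16 FPKM in WT without it (-0.77 ± 0.06, adjusted p = 0.000314). Afdn, which links nectins to actin, fell in WT with IL-6 by 0.59 ± 0.06 (adjusted p = 0.00092) and Nectin2 rose by 0.54 ± 0.07 (adjusted p = 0.00239). Marveld1, named for IL-6 in WT, fell there by 0.17 ± 0.04 (adjusted p = 0.0266). The difference of its IL-6 changes, KO minus WT, did not pass (adjusted p = 0.107). With 2 libraries per group no library could be called an outlier.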

How the results depend on the processing

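No member's passing change turned round in any of 2394 recomputed values. Of these, 2339 stayed on the same side of the threshold, 28 no longer passed and 27 newly passed. The 2339 include 57 sign changes, all between values that had not passed in either fit. The count of members that passed for IL-6 in WT was 11 (2 higher, 9 lower) with coding transcripts only, against 6. Over all genes, equal totals put 34.74% of the calls for IL-6 in WT and 55.08% of those for the difference of the IL-6 changes on the higher side, against 52.84% and 41.93%. Leaving out single libraries gave 20 to 23 and 23 to 25 members for the genotype without IL-6 and with it, 0 for IL-6 in KO, 5 to 7 for IL-6 in WT and 1 to 5 for the difference, which was 2 without either KO replicate, 2 without replicate 1 of KO with IL-6 and 1 without its replicate 2. Pseudocounts of 0.1 and 5 moved many log2 values of low genes by over 1.5 times, as their construction implies. The cause of the other shifts was not tested. A lone library of a group was assumed to vary like the other groups. The replicate numbers do not pair the libraries (correlations of deviations -0.0973 to 0.0549), and with the replicate block 22, 25, 0, 7 and 4 members passed, Krt19 being the one added for IL-6 in WT. With no filter 28 of the 39 passed for the genotype both without IL-6 and with it, and with a filter of 5 FPKM 15 and 17. The shares of all genes that passed were not computed for any alternative fit, including the one with coding transcripts only. The member counts of the alternatives thus stand without a background. For genes under 1 FPKM the level of 3 fragments limits what can be seen. Alternatives were run for the members and not for the related genes.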
